A study of Arabidopsis thaliana with 3 samples.

Results

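The genes described here encode the light-harvesting antenna of both photosystems, the small subunit of Rubisco, the early light-induced proteins, enzymes of chlorophyll synthesis and the GLK transcription factors of Arabidopsis thaliana. They are 38 loci, taken from a fixed list of locus identifiers, out of 27444 protein-coding genes on the 5 nuclear chromosomes. Of these, 20 are antenna genes, 10 belong to chlorophyll synthesis, 4 are RBCS genes, 2 are ELIP genes and 2 are GLK genes. The measurement was anti-GFP chromatin immunoprecipitation and sequencing of 7-day-old seedlings grown in low blue light. The lines analysed were OX TZP and OX ZFHD10, which overexpress the zinc-finger protein TZP and the zinc-finger homeodomain protein ZFHD10, with 1 library each. A Col-0 library of the same age and light was also made, but no list of it was analysed here. The sources used here give neither the promoter that drives the transgenes nor the number of independent lines. Binding is described by islands, the enriched stretches in each deposited list, and by their reads per kb of island, called density below.

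Antenna proteins hold chlorophyll around the reaction centres. LHCA proteins serve photosystem I, and LHCB proteins serve photosystem II. Chlorophyll is made in the plastid from glutamate through a branched tetrapyrrole pathway, whose steps must keep pace with the supply of antenna proteins because free intermediates are toxic in light. The nuclear genes for both are classic light-induced genes of the young seedling, and the GLK factors are known to activate many of them.

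In OX TZP 11684 islands were listed, which together held 2112203 reads. Of these, 11675 were nuclear, with a median density of 163 reads per kb. In OX ZFHD10 16122 islands were listed, all nuclear, with 4731495 reads and a median density of 262 reads per kb. With 1 library per line no difference between the lines could be tested. Whole-library depth is unknown, so densities are ranked within a list and not compared between lists. The introduced gene TZP (AT5G43630) carried an OX TZP island that ranked 3 in its list, at 594 reads per kb. The densest OX ZFHD10 island of that gene ranked 12145, at 227 reads per kb. The gene HB23 (AT5G39760), which the gene table also calls zinc finger homeodomain 10, was spanned by an OX ZFHD10 island that ranked 80, at 548 reads per kb, while its OX TZP island ranked 1315, at 191 reads per kb. Intervals in parentheses are 95% exact Poisson intervals and cover counting error alone.

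Chlorophyll synthesis genes carried islands more often than antenna genes in both lists. In OX ZFHD10, 10 of 20 antenna genes (50%) had an island touching the gene or the 1000 bp on either side, against 9 of 10 chlorophyll synthesis genes (90.0%), and 65.9% of all protein-coding genes had one. In OX TZP, 6 of 20 antenna genes (30.0%) had an island, against 5 of 10 chlorophyll synthesis genes (50%), with 47.2% over all protein-coding genes. The chlorophyll synthesis share in OX TZP was thus close to that of all genes. Over all 38 genes, 11 had an OX TZP island (28.9%) and 25 an OX ZFHD10 island (65.8%), and the second share was close to that of all protein-coding genes. Islands of each line were found at 9 of the 38 (23.7%), against 36.7% of all protein-coding genes, and 11 had none (28.9%), against 23.5%.

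The size of these differences depended on which genes and islands were counted. Without LHCB1, LHCB2 and RBCS the OX ZFHD10 difference between antenna and chlorophyll synthesis genes was -15.0 percentage points, against -40.0 with them. Among islands at or above the median density of the OX ZFHD10 list it was -5.00 points. In OX TZP the difference was -20.0 points as counted here, -10.0 points with no flank or with 500 bp either side, where the island 907 bp from CRD1 no longer counts, and -5.00 points among islands at or above the median density. Antenna genes were also shorter, with a median of 1455 bp, against 2040 bp in chlorophyll synthesis genes, and longer genes offer more room for an island. The part of gene length in these shares was not tested. The distance of the OX TZP antenna share from that of all genes also varied. It was 6 of 20, against 34.3% of all genes, with no flank. Among islands at or above the median density it was 5 of 20, against 25.3%. Among islands at or above the median read count it was 3 of 20, against 29.0%, and with the nearest gene alone 3 of 20, against 31.2%.

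**Figure D1:**
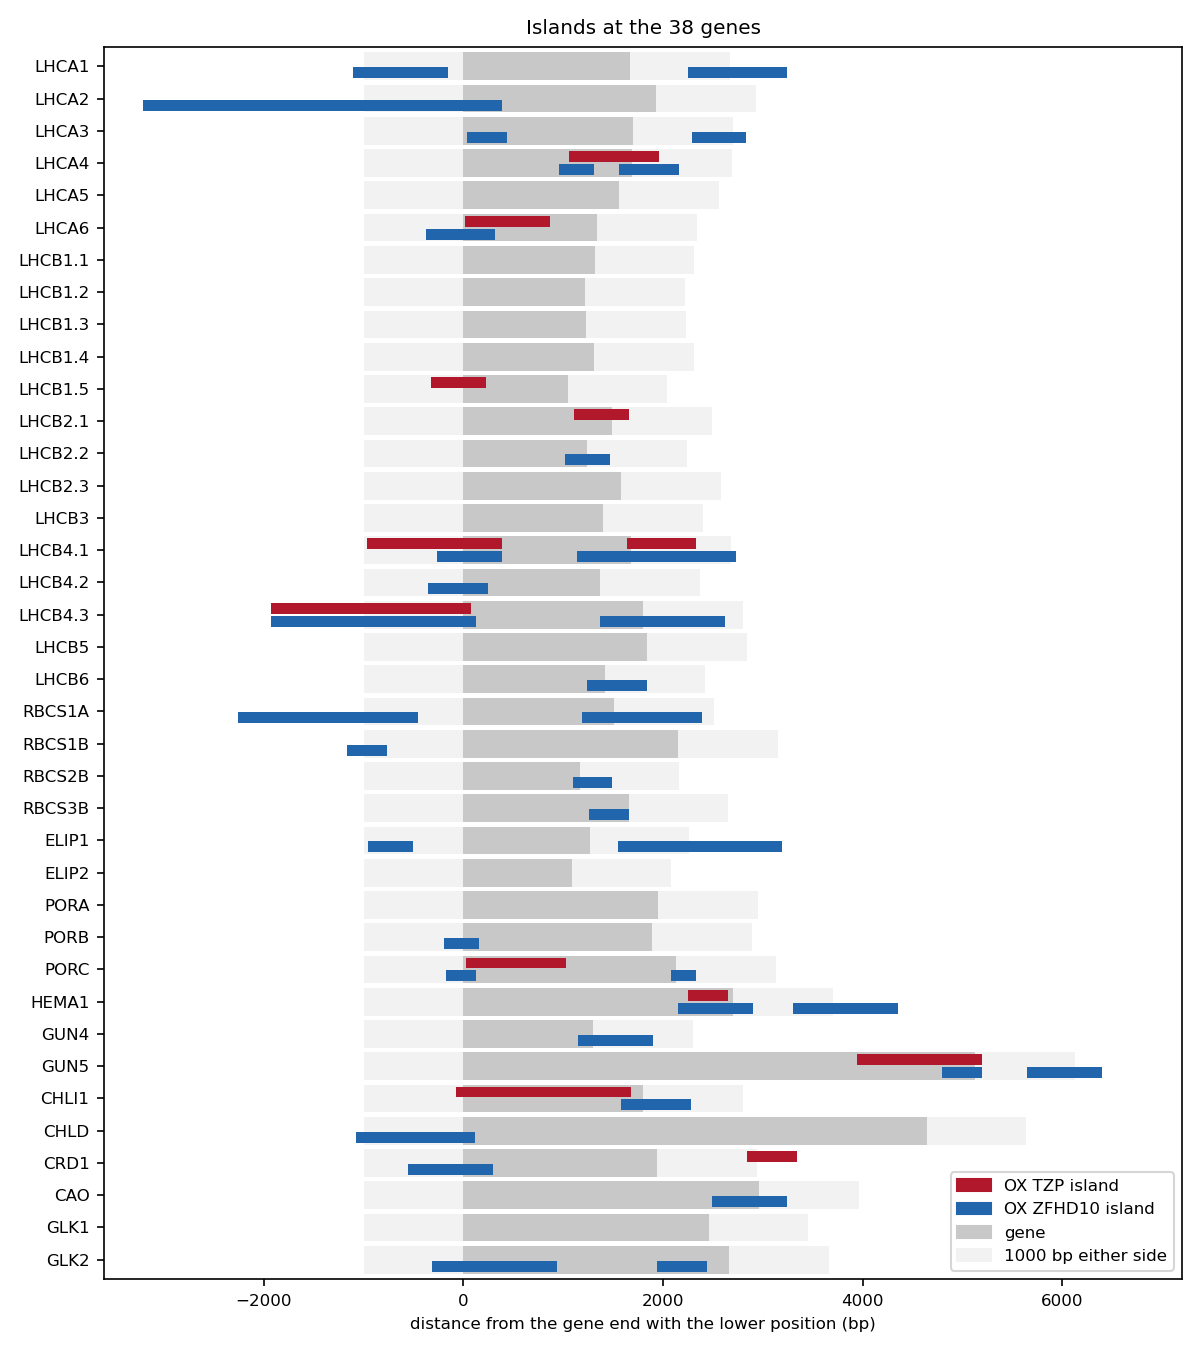
Islands of OX TZP (red) and OX ZFHD10 (blue) at the 38 genes, drawn to scale as distance in bp from the gene end with the lower position. Dark grey is the gene and light grey the 1000 bp on either side; 11 genes have no island, among them LHCB1.1 to LHCB1.4, and 8 genes have OX ZFHD10 islands toward both ends.

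Among the antenna genes of photosystem I, 5 of 6 had an OX ZFHD10 island, where 65.9% of all genes had one, and 2 of 6 an OX TZP island, where 47.2% had one. LHCA4 (AT3G47470), which encodes an antenna protein of the belt beside photosystem I, had the densest antenna island of each list. Its OX TZP island at chr3:17494401-17495300 had 166 reads, or 184 reads per kb (157 to 215), rank 1838. The OX ZFHD10 island at chr3:17494901-17495500 had 246 reads, or 410 reads per kb (360 to 465), rank 819, and a weaker one at chr3:17494301-17494650 had 283 reads per kb (230 to 344). Both OX ZFHD10 islands overlapped the OX TZP island, by 400 and 250 bp. Of all genes with an OX ZFHD10 island, 7.38% had one at least as dense as that of LHCA4.

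LHCA6 (AT1G19150), a minor antenna protein that links photosystem I to the NDH complex, had the least dense islands of the antenna genes in both lists. The OX TZP island at chr1:6612651-6613500 had 116 reads, or 136 reads per kb (113 to 164), rank 11458 of 11675. The OX ZFHD10 island at chr1:6612251-6612950 had 129 reads, or 184 reads per kb (154 to 219), rank 15684 of 16122. It was centred nearer to AT1G19140. The islands shared 300 bp, and the OX TZP island took up 63.3% of the gene without leaving it.

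LHCA1, LHCA2 and LHCA3 had OX ZFHD10 islands alone. At LHCA1 (AT3G54890) an island lay beyond either end of the gene, with 315 reads per kb (280 to 353) and 294 reads per kb (261 to 330), and neither entered it. They were centred nearer to AT3G54880 and CXIP1. LHCA2 (AT3G61470) lay at the edge of an island of 3600 bp with 291 reads per kb (273 to 309), of which 10.8% was inside the gene. That island was centred nearer to the neighbouring gene BRH1. LHCA3 (AT1G61520) had an island of 298 reads per kb (246 to 356) wholly inside the gene and another of 235 reads per kb (196 to 279) 588 bp outside it. The outer island was centred nearer to AT1G61540. LHCA5 (AT1G45474), a low-abundance relative, had no island within 1000 bp, and the nearest lay 1549 bp away in OX TZP and 1949 bp away in OX ZFHD10.

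The LHCB1 and LHCB2 genes encode proteins of the major trimeric antenna of photosystem II, and few of them had islands. Of these 8 genes, 2 had an OX TZP island and 1 an OX ZFHD10 island, and no gene had both. Over all protein-coding genes these shares were 47.2%, 65.9% and 36.7%. The OX TZP islands lay at LHCB1.5 (AT2G34420), with 96 reads or 175 reads per kb (141 to 213), and at LHCB2.1 (AT2G05100), with 97 reads or 176 reads per kb (143 to 215). The island at LHCB1.5 was centred nearer to its neighbour RWA3. The OX ZFHD10 island lay at LHCB2.2 (AT2G05070), with 105 reads or 233 reads per kb (191 to 282). LHCB1.1 (AT1G29920), LHCB1.2 (AT1G29910) and LHCB1.3 (AT1G29930), neighbours on chromosome 1, had none in either list. The nearest OX ZFHD10 islands to these 3 genes lay 6405, 4029 and 7536 bp away, while an OX TZP island lay 1236 bp from LHCB1.3. LHCB1.4 (AT2G34430) and LHCB2.3 (AT3G27690) also had none. Copies within LHCB1, LHCB2 and RBCS are close in sequence, and the sources used here do not say how reads matching several places were treated, so the absence of an island at these genes is uncertain.

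The other photosystem II antenna genes, LHCB3 to LHCB6, had an OX ZFHD10 island in 4 of 6 cases, a share close to the 65.9% of all genes. An OX TZP island was found in 2 of 6, against 47.2% of all genes. LHCB4 encodes CP29, which joins the trimers to the reaction centre, and all 3 of its genes had an OX ZFHD10 island. LHCB4.1 (AT5G01530) was the gene among the 38 with 2 islands of each line, 1 over each gene end. Its OX TZP islands at chr5:207901-209250 and chr5:210501-211200 had 157 reads per kb (137 to 180) and 180 reads per kb (150 to 214). The OX ZFHD10 islands at chr5:208601-209250 and chr5:210001-211600 had 322 reads per kb (279 to 368) and 362 reads per kb (333 to 393). Each OX TZP island overlapped the OX ZFHD10 island at the same gene end, by 650 and 700 bp. Both OX TZP islands and the second OX ZFHD10 island were centred nearer to a neighbour, AIRP2 or LECRKA4.1.

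At LHCB4.3 (AT2G40100) the islands of the lines nearly coincided, sharing 2000 bp. The OX TZP island at chr2:16743701-16745700 had 172 reads per kb (155 to 192). The OX ZFHD10 island at chr2:16743701-16745750 had 240 reads per kb (219 to 262). They entered the gene by 3.65% and 6% of their length and were centred nearer to AT2G40095. A second OX ZFHD10 island at chr2:16747001-16748250, over the far gene end, was denser, with 328 reads per kb (297 to 361). LHCB4.2 (AT3G08940) and LHCB6 (AT1G15820), which encodes CP24, had OX ZFHD10 islands alone, of 233 reads per kb (196 to 275) and 320 reads per kb (276 to 369). The island at LHCB6 was centred nearer to AT1G15830. LHCB3 (AT5G54270) and LHCB5 (AT4G10340), which encodes CP26, had none, although an OX ZFHD10 island of 210 reads per kb lay 1056 bp from LHCB5, just past the limit of 1000 bp.

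The densest island of the set in each list lay at HEMA1, a gene of early chlorophyll synthesis. HEMA1 (AT1G58290) encodes glutamyl-tRNA reductase, which commits glutamate to tetrapyrroles. Its islands ranked highest among the 38 genes in both lists, at rank 364 of 11675 in OX TZP and at rank 247 of 16122 in OX ZFHD10. The OX TZP island at chr1:21625951-21626350 had 87 reads, or 218 reads per kb (174 to 268), and lay wholly inside the gene and wholly inside the OX ZFHD10 island at chr1:21625851-21626600, which had 357 reads, or 476 reads per kb (428 to 528). Of all genes with an island, 2.98% had one at least as dense as HEMA1 in OX TZP and 2.18% in OX ZFHD10. The OX TZP island was short, at 400 bp, and its 87 reads were under the list median of 147 reads. The 357 reads of the OX ZFHD10 island were above its list median of 203 reads. A second OX ZFHD10 island beyond the gene was weak, at 191 reads per kb (166 to 220), and was centred nearer to HO4.

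Magnesium chelatase inserts magnesium into protoporphyrin and is built from the subunits GUN5 (CHLH), CHLD and CHLI, with GUN4 as its activator. Each of the 4 genes had an OX ZFHD10 island, where 65.9% of all protein-coding genes had one. GUN5 and CHLI1 also had an OX TZP island, where 47.2% of all protein-coding genes had one. At GUN5 (AT5G13630) the OX TZP island at chr5:4391251-4392500 had 200 reads, or 160 reads per kb (139 to 184), and contained the OX ZFHD10 island at chr5:4392101-4392500, with 92 reads or 230 reads per kb (185 to 282). Another OX ZFHD10 island 521 bp beyond that gene end had 283 reads per kb (246 to 323) and was centred nearer to PDAT.

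At CHLI1 (AT4G18480) the OX TZP island at chr4:10201601-10203350 had 265 reads, or 151 reads per kb (134 to 171), and covered 93.4% of the gene, the largest part covered at any of the 38. The OX ZFHD10 island at chr4:10203251-10203950, with 191 reads per kb (160 to 227), met it over 100 bp at the gene end. This OX ZFHD10 island was centred nearer to AT4G18490. These islands ranked low, 9148 in OX TZP and 15359 in OX ZFHD10. CHLD (AT1G08520) and GUN4 (AT3G59400) had OX ZFHD10 islands of 228 reads per kb (202 to 257) and 196 reads per kb (166 to 230). The island at GUN4 was centred nearer to GCN2.

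CRD1 (AT3G56940) encodes a subunit of the cyclase that forms the fifth ring of chlorophyll, and its islands lay apart. The OX TZP island at chr3:21079351-21079850 had 93 reads, or 186 reads per kb (150 to 228), but lay 907 bp outside the gene and was centred nearer to SIP2;1. The OX ZFHD10 island at chr3:21075951-21076800, over the opposite gene end, had 197 reads, or 232 reads per kb (201 to 266). It too was centred nearer to a neighbour, AT3G56930. CAO (AT1G44446), which encodes the oxygenase that makes chlorophyll b, had an OX ZFHD10 island alone, with 236 reads or 315 reads per kb (276 to 357).

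The POR genes encode the light-dependent protochlorophyllide oxidoreductases, and their islands differed from gene to gene. PORC (AT1G03630) had an OX TZP island at chr1:907551-908550 with 163 reads, or 163 reads per kb (139 to 190), wholly inside the gene. It also had OX ZFHD10 islands at chr1:907351-907650 with 310 reads per kb (250 to 380) and at chr1:909601-909850 with 109 reads, or 436 reads per kb (358 to 526). This last island ranked 519 of 16122 and was short, at 250 bp. The one of 310 reads per kb was centred nearer to AT1G03620. PORB (AT4G27440) had an OX ZFHD10 island of 226 reads per kb (179 to 281) with 79 reads. PORA (AT5G54190), the form best known from dark-grown seedlings, had none, and the nearest lay 3463 bp away in OX TZP and 2113 bp away in OX ZFHD10.

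**Figure D2:**
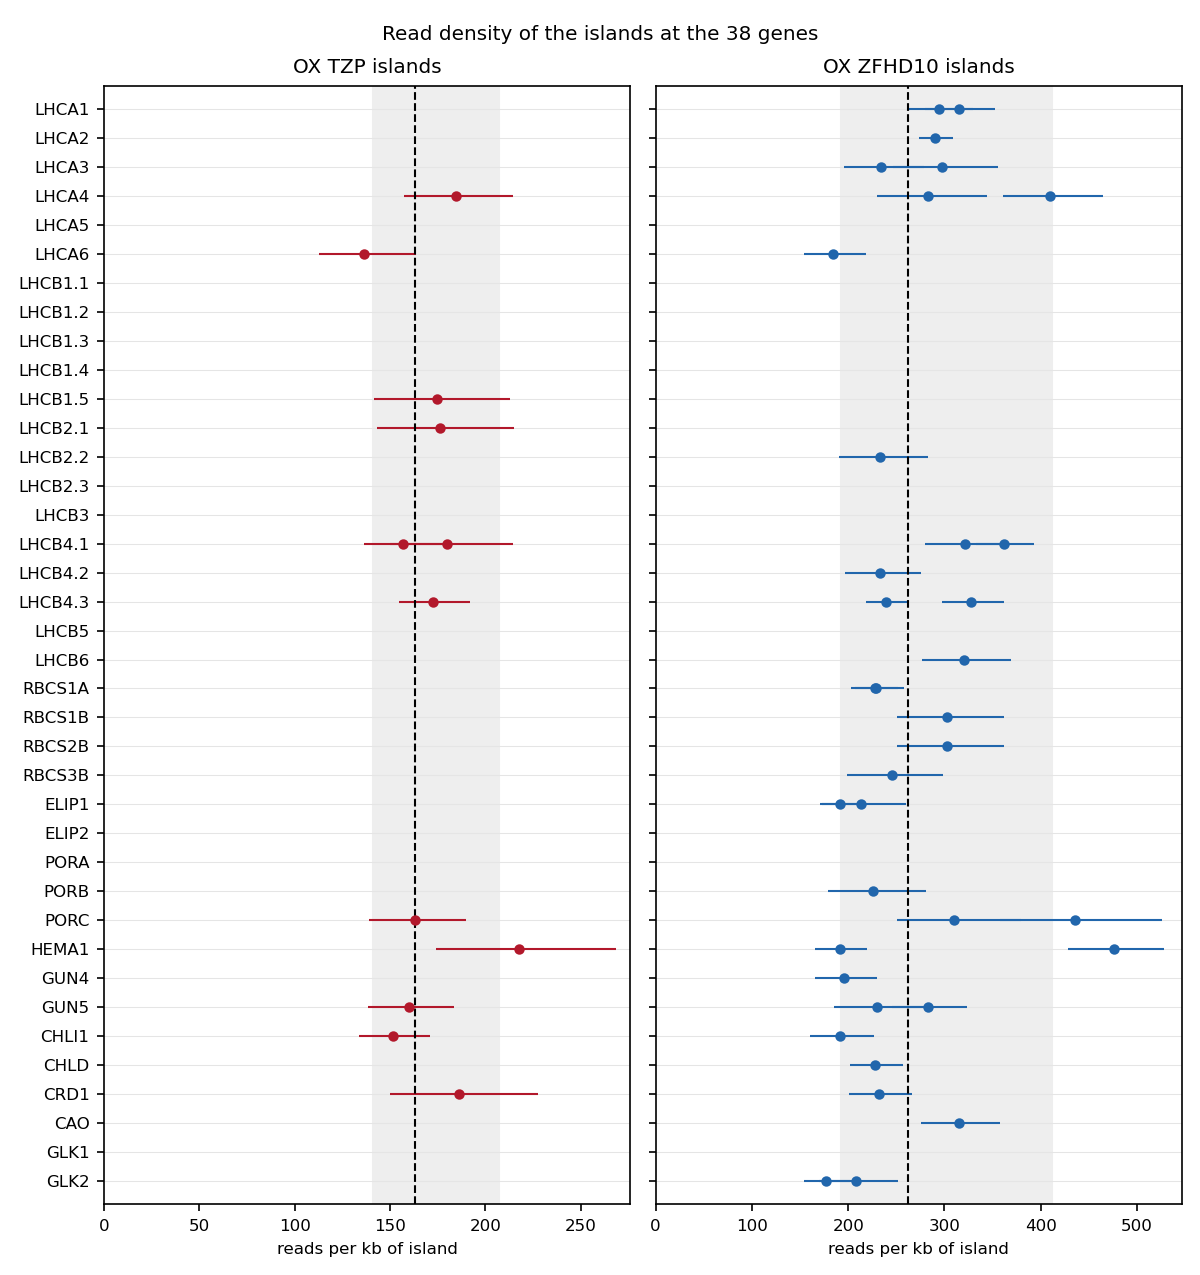
Density in reads per kb of island (x axis) of each island at each of the 38 genes (rows), with 95% exact Poisson intervals, for OX TZP and OX ZFHD10. The dashed line is the median of the whole list (163 and 262 reads per kb) and the grey band its 5th to 95th percentiles; the densest HEMA1 island lies right of the band in both panels, as does 1 PORC island in OX ZFHD10.

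All 4 RBCS genes had an OX ZFHD10 island and none had an OX TZP island, where 65.9% and 47.2% of all genes had one. RBCS genes encode the small subunit of Rubisco, the enzyme that fixes carbon dioxide. RBCS1A (AT1G67090) had islands toward both ends, with 228 reads per kb (207 to 252) and 229 reads per kb (203 to 258), both below the median of the list. The first lay 457 bp outside the gene and was centred nearer to ABA4. RBCS1B (AT5G38430) and RBCS2B (AT5G38420) share a single island between them at chr5:15382001-15382400, with 121 reads or 302 reads per kb (251 to 361). It lay 766 bp from RBCS1B and over the end of RBCS2B. RBCS3B (AT5G38410) had an island of 245 reads per kb (199 to 299) at its end. The 4 genes thus rest on 4 islands, and the nearest OX TZP islands lay between 1707 bp (RBCS1A) and 10858 bp (RBCS3B) away.

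The early light-induced proteins are antenna relatives that bind pigments under light stress. ELIP1 (AT3G22840) had OX ZFHD10 islands of 213 reads per kb (173 to 261) and 192 reads per kb (171 to 214) beyond its ends, and neither entered the gene. The less dense island was centred nearer to AT3G22845. ELIP2 (AT4G14690) had no island within 1000 bp, and its nearest OX ZFHD10 island, 2091 bp away, had 551 reads per kb. Of the GLK genes, GLK1 (AT2G20570) had no island of either line. GLK2 (AT5G44190) had OX ZFHD10 islands of 177 reads per kb (154 to 202) and 208 reads per kb (170 to 252), which together covered 54.0% of the gene. Both ranked low, at 15918 and 14104 of 16122.

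Where an island was present, its density did not set these genes apart. The densest OX TZP island of a gene had a median of 175 reads per kb over the 11 genes that had one, 1.07 times the list median, against 164 reads per kb over all protein-coding genes with an island. In OX ZFHD10 the median was 283 reads per kb over 25 genes, 1.08 times the list median, against 278 reads per kb over all such genes. The antenna genes had a median of 306 reads per kb in OX ZFHD10 and the chlorophyll synthesis genes 232 reads per kb, the reverse of the order of their shares. In OX TZP these medians were 175 reads per kb and 163 reads per kb. Without CHLI1 the chlorophyll synthesis median in OX ZFHD10 was 257 reads per kb, and without LHCB4.1 the antenna median was 298 reads per kb. The densest OX ZFHD10 island was centred nearer to a neighbour at LHCA1, LHCA2, LHCA6, LHCB4.1 and LHCB6. The same held at GUN4, GUN5, CHLI1 and CRD1. Values ranged from 136 to 184 reads per kb in antenna genes and from 151 to 218 reads per kb in chlorophyll synthesis genes in OX TZP, and from 184 to 410 and from 191 to 476 reads per kb in OX ZFHD10, so the groups overlapped in both lists.

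**Figure D3:**
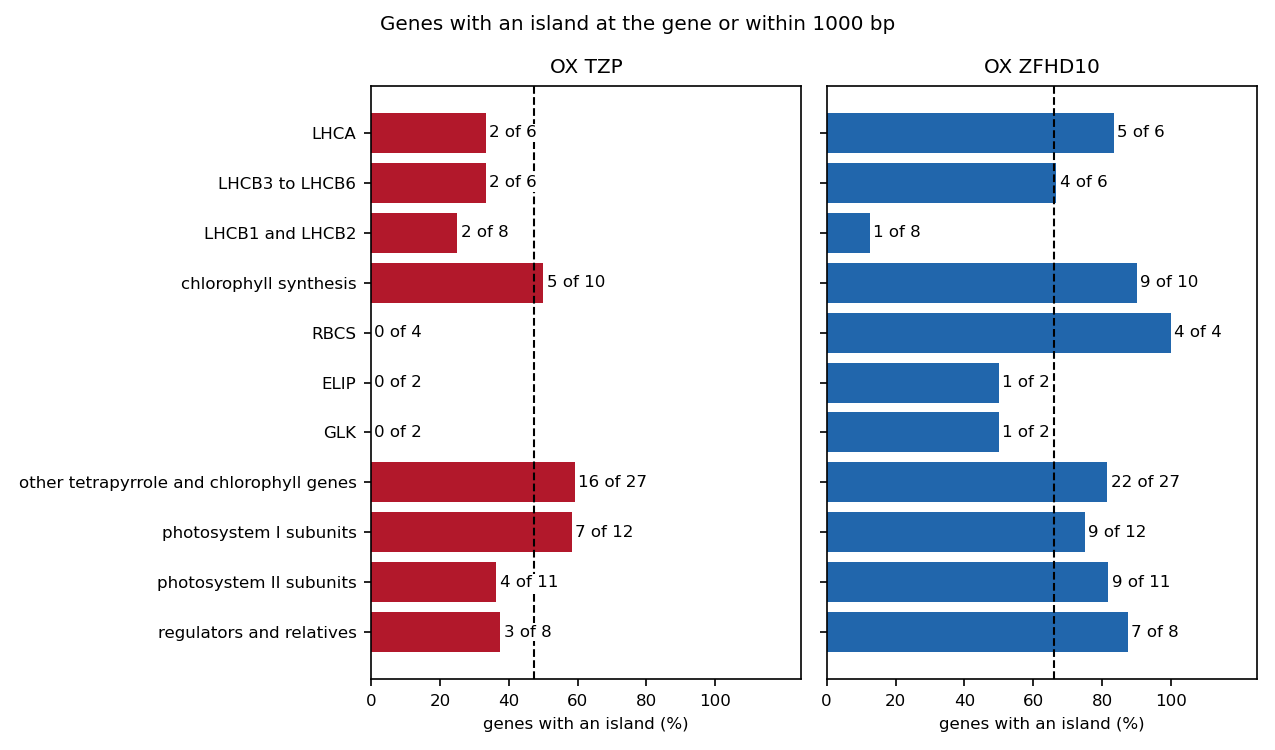
Percentage of genes (x axis) with an island touching the gene or the 1000 bp on either side, by gene group, for OX TZP and OX ZFHD10, with counts beside the bars. The dashed line is the share of all protein-coding genes (47.2% and 65.9%); LHCB1 and LHCB2 stand at 1 of 8 in OX ZFHD10, and RBCS at 0 of 4 in the OX TZP panel beside 4 of 4 in the OX ZFHD10 panel.

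Most islands lay over a gene end. Of 12 pairs of a gene and an OX TZP island, 8 crossed one gene end (66.7%, against 40.3% over all protein-coding genes), 3 lay wholly inside the gene (25.0%, against 24.5%) and 1 lay outside it (8.33%, against 33.6%). Of 36 such pairs in OX ZFHD10, 24 crossed one gene end (66.7%, against 65.7%), 3 lay inside (8.33%, against 4.18%) and 9 outside (25.0%, against 27.7%). OX ZFHD10 islands were centred toward both ends of 8 genes (21.1%), against 20.7% of all genes. Only 7 of 12 OX TZP islands and 19 of 35 OX ZFHD10 islands had their midpoint nearest to a gene of the set. The others were centred nearer to neighbours. Of the 12 and 35, 10 and 27 also touched the window of another protein-coding gene.

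Counted in bases, OX TZP islands covered 8.70% of antenna gene bodies and 16.1% of chlorophyll synthesis gene bodies, with 12.1% over all protein-coding genes. The second value includes CHLI1, without which it was 10.5%. On the 1000 bp either side they covered 8.44% at antenna genes and 1.18% at chlorophyll synthesis genes, with 11.8% over all genes. The antenna value rests on LHCB4.1 and LHCB4.3, whose OX TZP islands were centred nearer to neighbours, and was 4.63% without LHCB4.1 and 2.11% without both. OX ZFHD10 islands covered 12.5% of antenna gene bodies and 9.33% of chlorophyll synthesis gene bodies, with 11.9% over all genes, and 19.1% and 23.2% of the flanks, with 23.7% over all genes. By this measure, which counts bases and not genes, both groups lay near or below all genes in OX ZFHD10, and in OX TZP the flanks of both groups held few island bases apart from those of LHCB4.1 and LHCB4.3.

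**Figure D4:**
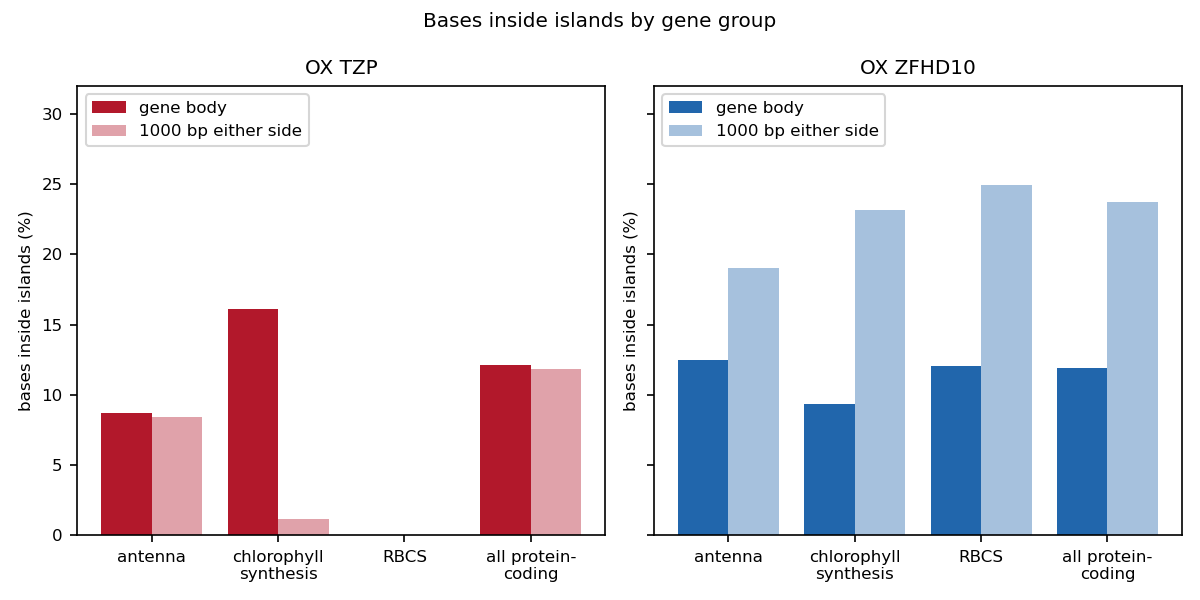
Percentage of bases inside islands (y axis) in gene bodies and in the 1000 bp on either side, for antenna, chlorophyll synthesis and RBCS genes and all protein-coding genes. In OX TZP the flanks of chlorophyll synthesis genes stand at 1.18% and those of all genes at 11.8%, and RBCS genes have no bar.

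At 8 of the 9 genes with islands of each line the islands overlapped, at LHCA4, LHCA6, LHCB4.1, LHCB4.3, PORC, HEMA1, GUN5 and CHLI1, and CRD1 was the exception. Overlapping islands were found at 26.6% of all protein-coding genes, so 8 of 38 is not above that share. The shared stretch ran from 100 bp at PORC and CHLI1 to 2000 bp at LHCB4.3. OX TZP islands alone were found at LHCB1.5 and LHCB2.1 (2 of 38, against 10.5% of all genes), and OX ZFHD10 islands alone at 16 genes, against 29.2% of all genes.

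Other nuclear genes of chlorophyll metabolism and photosynthesis had islands more often than the antenna genes in both lists. Over all 58 such genes, 30 had an OX TZP island (51.7%, with 47.2% over all genes) and 47 an OX ZFHD10 island (81.0%, with 65.9% over all genes). In OX ZFHD10 the antenna share includes LHCB1 and LHCB2, at 1 of 8, where the absence of islands is uncertain. The other antenna genes stood at 5 of 6 for LHCA (83.3%) and 4 of 6 for LHCB3 to LHCB6 (66.7%), on either side of 81.0%. Of 27 further tetrapyrrole and chlorophyll genes, 16 had an OX TZP island (59.3%, with 47.2% over all genes) and 22 an OX ZFHD10 island (81.5%, with 65.9% over all genes). HEMB1, an early enzyme of the pathway, had the densest OX TZP island among them, with 244 reads per kb (187 to 313). That island had 61 reads, under the list median of 147 reads. NYC1, which starts the breakdown of chlorophyll b, had the densest OX ZFHD10 island, with 451 reads per kb (410 to 495). LIL3:1 in OX TZP, with 217 reads per kb (171 to 272), and LIL3:2 in OX ZFHD10, with 428 reads per kb (386 to 473), encode antenna-like proteins of late chlorophyll synthesis. The LIL3:1 island had 76 reads, also under the OX TZP median. The OX ZFHD10 islands of NYC1 and LIL3:2 had 451 and 385 reads, above the list median of 203 reads.

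Among photosystem I subunit genes, 7 of 12 had an OX TZP island (58.3%, with 47.2% over all genes) and 9 of 12 an OX ZFHD10 island (75.0%, with 65.9% over all genes). PSAK led in both lists, with 240 reads per kb (188 to 302) and 456 reads per kb (432 to 481). Its OX TZP island had 72 reads, under the list median of 147 reads, and its OX ZFHD10 island had 1323 reads. Of photosystem II subunit genes, 4 of 11 had an OX TZP island (36.4%, under the 47.2% of all genes), the densest at PSBO1 with 179 reads per kb (156 to 205). In OX ZFHD10 9 of 11 did (81.8%, with 65.9% over all genes), the densest at PSBQ-2 with 412 reads per kb (381 to 444). A last list held the GATA factors GNC and CGA1, the plastid signalling gene GUN1, Rubisco activase and 4 antenna relatives, and 3 of 8 had an OX TZP island (37.5%, under the 47.2% of all genes) and 7 of 8 an OX ZFHD10 island (87.5%, with 65.9% over all genes). SEP1, a stress-enhanced antenna relative, led it in both lists, with 179 reads per kb (149 to 213) and 409 reads per kb (376 to 443).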

How the data were processed

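The deposited lists give a chromosome, a start, an end and a whole-number count per island, which was taken as the authors' read count, not scaled for depth or length, from its values and the form of such lists. The build was TAIR10, and the tools listed were SICER 1.1, Bowtie 0.12.7, cutadapt 1.5 and HOMER, per the submitters' processing notes, which state no step for any. Names of the lists read as a 50 bp window, a 200 bp gap and a false discovery rate cut of 0.1. The control library and the treatment of duplicate and multiply matching reads are not given in the sources used here. Counts were divided by island length in kb. No nuclear island had fewer than 47 reads in the OX TZP list or 55 in the OX ZFHD10 list. Any PCR copies of a molecule left in the lists would count as separate reads, so intervals cover counting error only.

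Genes came from a table of TAIR10.1, which gives no strand. As a check that positions match, islands of OX ZFHD10 were shifted against the genes, and the shift that put fewest midpoints in gene bodies was at most 200 bp in 24 of 25 chromosome segments and 300 bp in the other. An island belonged to every gene whose body or 1000 bp on either side it touched by at least 1 bp. With 1 library per line no test was run. Counts of genes with an island were read against the share of all protein-coding genes. The genes and lists were chosen with earlier results of these data known. Full values were given for genes with islands of each line and for the 3 densest and the least dense per list, other members by density, and up to 3 genes per related list. Assignment of islands was checked on 200 protein-coding genes. A direct search of the OX TZP islands and islands planted at those genes gave 0 wrong pairs. Alternatives changed the window, the overlap, the islands kept, the gene given an island, the genes counted and the density measure. Python 3.11.15 with numpy 2.4.6, pandas 2.3.3 and scipy 1.17.1 was used.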

Additional observations from a re-analysis of the deposited data

Results flagged for a closer look

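The OX TZP list held 1 island on the chloroplast genome, at positions 110251 to 128400, with 34118 reads, which entered no comparison of nuclear genes. A further 8 OX TZP islands lay on the mitochondrial genome, with 49592 reads. The OX ZFHD10 list held none on either genome.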

How the results depend on the processing

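Most of the 66 values recomputed under alternatives were counts or density ratios, which cannot change sign. The differences between antenna and chlorophyll synthesis genes could, and none did, but sizes moved. Genes with an OX TZP island, 11 as reported, came to 18 with 2000 bp either side, 6 among islands at or above the median read count and 7 when each island counted for the nearest gene alone. Genes with an OX ZFHD10 island, 25 as reported, came to 13 and 12 among islands at or above the median density and the median read count, and 17 with the nearest gene alone. Genes with islands of each line, 9 as reported, came to 14 with 2000 bp either side, 5 and 4 under the thresholds on density and reads, and 4 with the nearest gene. Fewer islands or wider windows change these counts by construction, and in each list the share of all genes moved with them. In OX TZP it was 57.3% with 2000 bp, 29.0% with the threshold on reads and 31.2% with the nearest gene. In OX ZFHD10 it was 39.9% and 40.1% under the thresholds on density and reads, and 44.3% with the nearest gene alone. The share of all genes with islands of each line was not recomputed, so the counts of 14, 5, 4 and 4 have no share beside them. The median ratio to the OX ZFHD10 list, 1.08 as reported, was 0.912 with 500 bp either side and with no flank. It was 0.934 with the nearest gene alone and 0.996 with the reads of all islands of a gene pooled. The OX TZP ratio, 1.07 as reported, was 0.992 among islands at or above the median read count. The other alternatives left each ratio above 1. The causes were not tested. Antenna genes had a lower share than chlorophyll synthesis genes under every alternative run, but the difference, -20.0 points in OX TZP and -40.0 in OX ZFHD10 as reported, ran from -25.0 to -5.00 points and from -45.0 to -5.00 points. The base coverage and density medians without CHLI1, LHCB4.1 or LHCB4.3 were computed after seeing the data. In protein-coding genes within the length range of the 38 genes (1045 to 5123 bp) the shares were 49.2% in OX TZP, 69.8% in OX ZFHD10 and 39.0% in both. Lengths were limited to this range but not matched. The median length was 1664 bp in the 38 genes and 2078 bp in all protein-coding genes. No paired analysis was possible because each line had 1 library.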
